A study of Bos taurus and Bos indicus with 12 samples.

Results

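TDO2, HPD and AADAT encode 3 enzymes that break down the aromatic amino acids tryptophan and tyrosine. They were taken by symbol from the annotation of a bovine expression array, are 3 of its 9155 named genes, and had 1 probe set each among the 24016 tested. The choice was made with earlier results of these same data known, and the values behind it are not stated, so every comparison of the 4 groups is treated as used. Their levels and differences are therefore given as a description, with standard errors and without a test, in all comparisons of the 4 groups.

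The study measured full-thickness skin punch biopsies of 8 mm diameter from 12 female cattle, 1 array per animal. Infested Brahman and infested Holstein-Friesian animals (3 each, all 6 months old) had gone through successive heavy infestations with the cattle tick Rhipicephalus microplus, and were sampled where larvae about 24 h old were attached. The naive Brahman animals (3, 18 months old) and naive Holstein-Friesian animals (3, 12 months old) had never met this tick. Brahman is an indicine breed and Holstein-Friesian a taurine dairy breed. Infestation and age cannot be told apart within a breed, since naive animals were older, whereas the infested animals of both breeds matched in age. Fewer cells of a type and less RNA per cell cannot be told apart in such whole-skin samples. Values are log2 expression from RMA (robust multi-array average), and a difference of 1 is a doubling.

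Tryptophan breakdown in mammals starts with the opening of its indole ring, a step catalysed by the haem enzyme TDO2 (tryptophan dioxygenase) or by IDO1. TDO2 is known mainly from liver, where glucocorticoids induce it in rats, and IDO1 from immune cells and epithelia, where interferon induces it. Kynurenine, which is formed later from the opened ring, is hydroxylated by KMO, cleaved by KYNU, or turned into kynurenic acid by aminotransferases such as AADAT. AADAT also transfers the amino group of aminoadipate in lysine breakdown. Tyrosine loses its amino group to TAT. HPD (hydroxyphenylpyruvate dioxygenase) then makes homogentisate, which HGD opens and FAH finally cleaves.

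TDO2, the first enzyme of the kynurenine route, was lower on every infested array than on any naive array of the same breed. It stood at 8.58, 3.86 and 3.59 log2 on infested Brahman arrays 1, 2 and 3, against 12.79, 10.48 and 11.87 on the naive Brahman arrays. Array 1 therefore stood apart from the other 2 infested Brahman arrays, and the SD of that group was 2.81. Infested Holstein-Friesian arrays had 7.78, 8.96 and 8.91, against 13.69, 12.54 and 13.66 on naive Holstein-Friesian arrays. The difference, infested minus naive, was -6.37 ± 1.11 log2 (SE) in Brahman and -4.75 ± 1.11 in Holstein-Friesian animals. On infested Brahman arrays 2 and 3 only 7.5% and 4.38% of probe sets had a lower signal than TDO2, whereas on naive arrays between 94.5% and 99.8% did. Without infested Brahman 1 the Brahman difference was -7.99, and without infested Brahman 3 it was -5.49.

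HPD, the dioxygenase of tyrosine breakdown, was also lower on every infested array than on the naive arrays of its breed. Its level was 4.66, 6.32 and 7.60 log2 on the infested Brahman arrays, against 12.03, 9.89 and 11.30 on the naive Brahman arrays. Within infested Brahman animals the order was the reverse of that for TDO2, since array 1 was the highest for TDO2 and the lowest for HPD. Infested Holstein-Friesian arrays had 7.92, 8.40 and 7.83, close to each other, against 10.79, 9.51 and 10.94 on the naive Holstein-Friesian arrays. The difference was -4.88 ± 0.71 (SE) in Brahman animals, -4.11 without infested Brahman 1 and -5.58 without infested Brahman 3. In Holstein-Friesian animals it was -2.37 ± 0.71, a 5.15-fold lower level.

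AADAT, the kynurenine and aminoadipate aminotransferase, had the smallest differences of the 3 genes, and its infested and naive groups did not overlap either. Infested Brahman arrays had 7.80, 6.97 and 7.08 log2, against 10.06, 8.62 and 9.08 on naive Brahman arrays. Infested Holstein-Friesian arrays had 7.18, 7.79 and 6.80, against 9.86, 9.20 and 9.17 on naive Holstein-Friesian arrays. The level was 3.91-fold lower in Brahman animals (log2 difference -1.97 ± 0.39, SE) and 4.44-fold lower in Holstein-Friesian animals (-2.15 ± 0.39). Its spread within groups was also small, with an SD between 0.39 and 0.74, whereas that of TDO2 lay between 0.65 and 2.81.

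Thus 3 of 3 genes had infested arrays wholly below the naive ones in each breed. Over all tested probe sets this held for 19.3% in Brahman and 16.0% in Holstein-Friesian animals. Because this contrast may have served to choose the genes, nothing is read from that count.

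**Figure D1:**
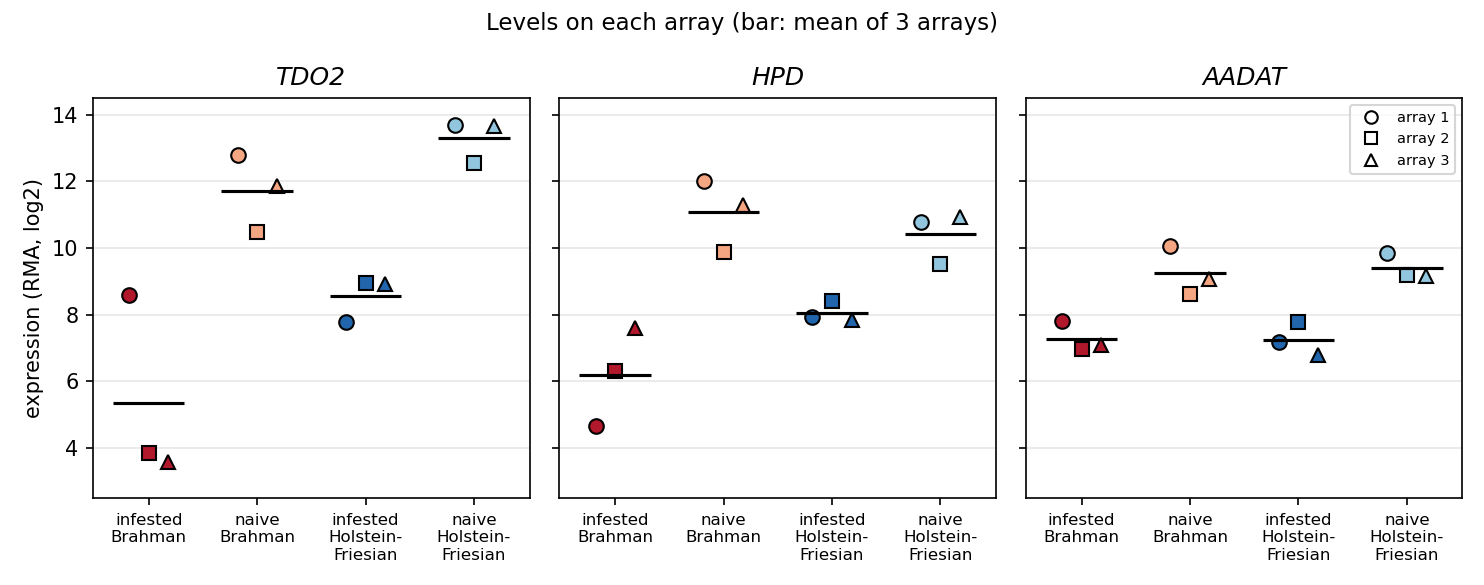
Expression (RMA, log2) of TDO2, HPD and AADAT on each of the 12 arrays, by group, with symbols for array number and a bar for the mean of 3 arrays. Infested arrays lie below the naive arrays of the same breed in each panel, and infested Brahman array 1 is the highest of its group for TDO2 (8.58) and the lowest for HPD (4.66).

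Between the breeds the 3 genes differed in size and direction. Among infested animals, which were of the same age, AADAT averaged 7.29 ± 0.45 log2 (SD, n = 3) in Brahman and 7.26 ± 0.50 in Holstein-Friesian animals, a difference of 0.03 ± 0.39 (SE). HPD averaged 6.19 ± 1.47 in infested Brahman and 8.05 ± 0.30 in infested Holstein-Friesian animals. Its difference was -1.86 ± 0.71, and the highest infested Brahman array (7.60) lay just below the lowest infested Holstein-Friesian array (7.83). Of all probe sets, 4.16% were lower and 9.24% higher without overlap in infested Brahman than in infested Holstein-Friesian animals, and HPD was the only one of the 3 genes to be so. TDO2 averaged 5.35 ± 2.81 in infested Brahman and 8.55 ± 0.67 in infested Holstein-Friesian animals, with overlap through infested Brahman 1. Its difference of -3.20 ± 1.11 was -4.82 without that array and -2.33 without infested Brahman 3.

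Among naive animals the ages differed, and none of the 3 genes separated the breeds, which 7.21% of all probe sets did with Brahman lower and 7.25% with Brahman higher. TDO2 averaged 11.71 ± 1.16 log2 in naive Brahman and 13.30 ± 0.65 in naive Holstein-Friesian animals (SD, n = 3 each). HPD averaged 11.07 ± 1.09 in naive Brahman and 10.41 ± 0.79 in naive Holstein-Friesian animals. AADAT averaged 9.25 ± 0.74 in naive Brahman and 9.41 ± 0.39 in naive Holstein-Friesian animals. From lowest to highest mean, TDO2 ran infested Brahman, infested Holstein-Friesian, naive Brahman, naive Holstein-Friesian, and HPD ran infested Brahman, infested Holstein-Friesian, naive Holstein-Friesian, naive Brahman. For AADAT both infested groups came before both naive ones. Neighbours in these orders overlapped, except the infested and naive groups of each gene that lay next to each other and, for HPD, the 2 infested groups.

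The difference between the breeds in the infestation contrast, Brahman minus Holstein-Friesian, was -2.51 ± 1.00 log2 (SE) for HPD. It was -1.62 ± 1.57 for TDO2 and 0.18 ± 0.54 for AADAT. Leaving out infested Brahman 1 changed it in opposite ways, to -3.24 for TDO2 and to -1.75 for HPD.

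Infested Brahman 1 was also the array with the lowest RNA integrity index, the mean 5' minus 3' log2 signal of 5 control transcripts. The index was -4.91, -2.56 and -2.07 on the infested Brahman arrays, against -1.04, -0.85 and -0.92 on the naive Brahman arrays. It was -2.73, -0.75 and -1.23 on the infested Holstein-Friesian arrays, against -1.39, -0.82 and -1.17 on the naive ones. With the index as a covariate the Brahman difference was -8.85 for TDO2 and -3.57 for HPD. Without the 2 arrays of lowest index (infested Brahman 1 and infested Holstein-Friesian 1) it was -7.99 for TDO2. In Brahman animals every infested array had a lower index than every naive array, so index and infestation cannot be told apart there. In Holstein-Friesian animals the index of the groups overlapped, and infested array 2 had the highest of the 12 (-0.75). The part of RNA integrity in the levels of the 3 enzymes was not tested.

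Other genes around tryptophan and tyrosine breakdown were tested. Their lists were drawn up with earlier results of these data known. Whether their values played a part in the choice of the 3 enzymes is not stated. Across 8 lists around the pathways, 74 genes were measured. In Brahman animals 23 of them passed the test (adjusted p under 0.05 over all probe sets), 18 lower and 5 higher in infested animals, where 19.8% of all probe sets were called, 10.2% lower and 9.54% higher. In Holstein-Friesian animals 9 passed, 8 lower and 1 higher, where 5.02% of all probe sets were called, 2.34% lower and 2.68% higher. The 27 genes for other amino acids gave 14 of the 18 lower and 1 of the 5 higher in Brahman animals. They gave 4 of the 8 lower in Holstein-Friesian animals. In Brahman animals the kynurenine list had 1 of 7 lower and other uses of tryptophan 1 of 7 higher. The phenylalanine and tyrosine list had 1 of 6 lower and 1 of 6 higher there, and 1 of 6 lower in Holstein-Friesian animals. The median difference of the 74 genes was -0.33 log2 in Brahman and -0.13 in Holstein-Friesian animals, and that of all probe sets was 0.04 in Brahman and -0.03 in Holstein-Friesian animals. The Holstein-Friesian count was 17 without infested Brahman 1, where 2563 of all 24016 probe sets were called, against 1206 in the main fit. This count was 1 to 3 without infested Holstein-Friesian 2 or 3 or any 1 of the naive Holstein-Friesian arrays. Without naive Brahman 2 it was 5, and without naive Brahman 3 it was 4. Over all probe sets, 157 to 576 were called without 1 of those Holstein-Friesian arrays. Without naive Brahman 2 and without naive Brahman 3, 734 and 808 were. The Brahman count was 15 without naive Brahman 3, 14 with the integrity index as a covariate and 5 with the replicate block in the 6 Brahman arrays. Over all probe sets, 2216, 1808 and 935 were called in these fits, against 4753 in the main fit. The Holstein-Friesian count was 5 with the replicate number as a block in all 12 arrays and 11 with the block in the 6 Holstein-Friesian arrays. Over all probe sets, 1047 and 1397 were called with these blocks.

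In the kynurenine route, 1 of 7 measured genes passed in Brahman animals, where 19.8% of all probe sets were called. None passed in Holstein-Friesian animals, where 5.02% were called and 2 of the 7 had an unadjusted p under 0.05. The share of all probe sets at that unadjusted threshold was not computed, here and for the lists below, so nothing is read from such counts. The gene that passed in Brahman animals was KMO, the enzyme that hydroxylates kynurenine. KMO stood at 5.74, 5.27 and 6.44 log2 on infested Brahman arrays, against 10.26, 8.20 and 9.53 on naive Brahman arrays. It fell 11.4-fold (log2 difference -3.51 ± 0.50 SE, adjusted p = 0.00183), and all infested arrays lay below all naive ones. On infested Holstein-Friesian arrays KMO had 7.15, 7.60 and 6.52, against 9.23, 8.34 and 8.30 on naive ones. Those groups did not overlap either, but the difference of -1.54 ± 0.50 did not pass (adjusted p = 0.105), though it passed with the replicate number as a block in the 6 arrays (adjusted p = 0.0456) and with array weights (-1.71, adjusted p = 0.0482). The breeds' difference in the KMO effect did not pass (adjusted p = 0.646).

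The other measured enzymes of that route did not pass in either breed. IDO1, which catalyses the same step as TDO2, averaged 4.89 log2 in infested and 5.20 in naive Brahman animals, and 5.76 in infested and 5.52 in naive Holstein-Friesian animals (adjusted p = 0.566 and 0.741). Its highest value in the study was 6.69, on infested Holstein-Friesian array 2. KYNU, which cleaves kynurenine, lay between 3.07 and 3.64 on all 12 arrays (adjusted p = 0.935 in Brahman and 0.634 in Holstein-Friesian animals). Signal that low may lie near background, so no lack of change is read from it. KYAT3, another kynurenine aminotransferase, differed by -0.54 in Holstein-Friesian animals (adjusted p = 0.102, and 0.0455 without infested Brahman 1). IDO2, AFMID, KYAT1 and HAAO were not analysed here.

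In phenylalanine and tyrosine breakdown, TAT fell in both breeds. This aminotransferase supplies the substrate of HPD. TAT stood at 5.70, 4.76 and 5.24 log2 on infested Brahman arrays, against 8.59, 7.16 and 8.27 on naive Brahman arrays. The fall was 6.84-fold (-2.77 ± 0.36 SE, adjusted p = 0.00118). Infested Holstein-Friesian arrays had 5.65, 5.95 and 5.06, against 7.50, 7.71 and 7.46 on naive ones. That fall was 4.01-fold (SE 0.36 log2, adjusted p = 0.0162), and it did not pass without naive Holstein-Friesian 1, naive Holstein-Friesian 2 or infested Holstein-Friesian 3 (adjusted p between 0.0586 and 0.0661).

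Downstream of HPD the measured enzymes did not pass. HGD, the next enzyme, averaged 4.10 log2 in infested and 4.12 in naive Brahman animals, and 4.13 in infested and 4.12 in naive Holstein-Friesian animals (adjusted p = 0.934 and 0.986). These levels may also lie near background, so no lack of change of HGD is read from them. FAH, the last enzyme, differed by -0.70 in Brahman and -0.59 in Holstein-Friesian animals (adjusted p = 0.0653 and 0.19), and passed in both without infested Holstein-Friesian 1 (adjusted p = 0.0193 and 0.0336). QDPR, a pteridine reductase that recycles tetrahydrobiopterin, rose in Brahman animals by 0.85 (adjusted p = 0.00472), while its other probe set differed by -0.15. With the integrity index as a covariate the QDPR call was lost (adjusted p = 0.0969). Of 6 measured genes in this list, 1 rose and 1 fell in Brahman animals, and 1 fell in Holstein-Friesian animals. Over all probe sets 9.54% were called higher and 10.2% lower in Brahman animals, and 2.34% lower in Holstein-Friesian animals. HPDL and GSTZ1 were not analysed here.

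**Figure D2:**
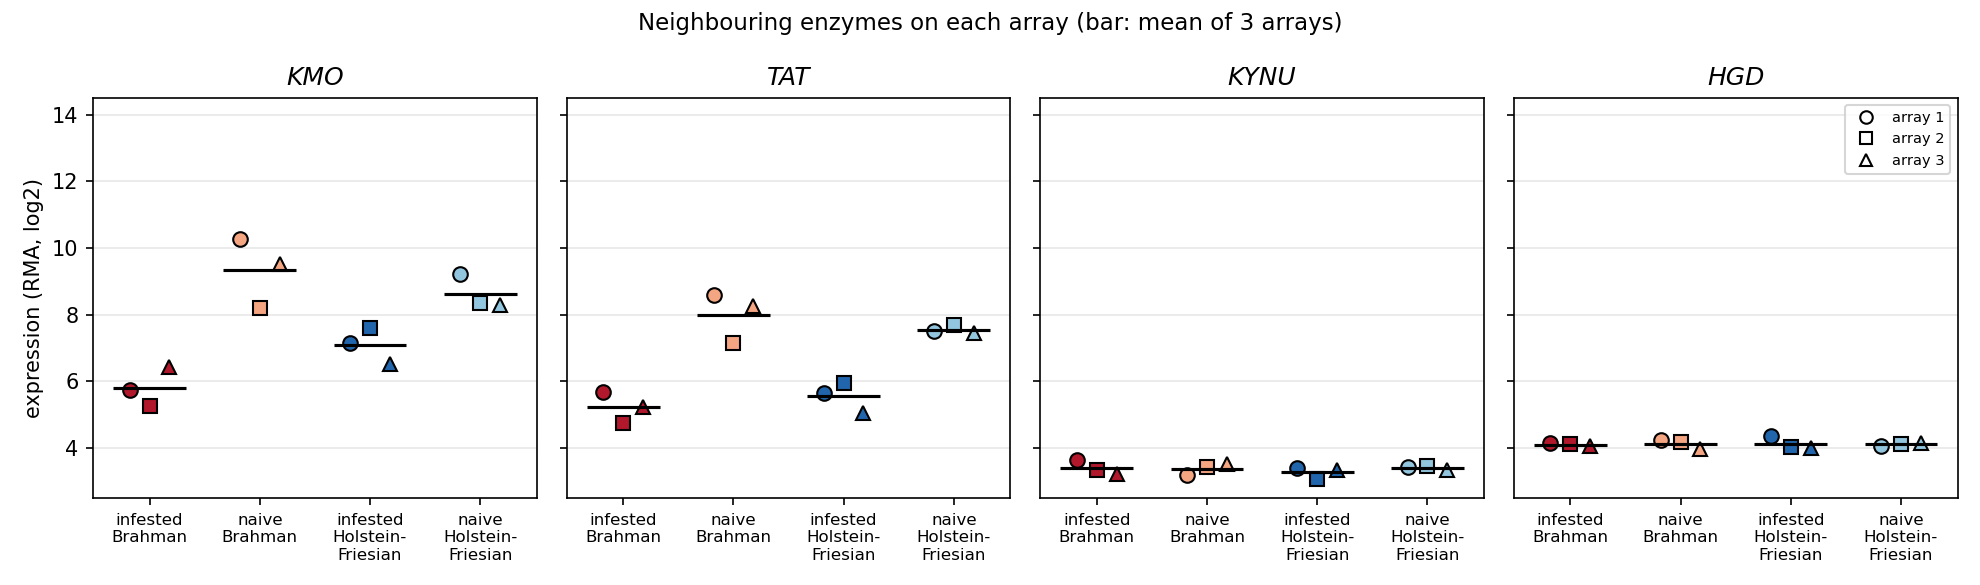
Expression (RMA, log2) on each array of KMO, TAT, KYNU and HGD, drawn as for the 3 enzymes. KMO and TAT have infested arrays below the naive arrays of each breed. KYNU (3.07 to 3.64) and HGD (3.97 to 4.35) are low on all arrays and may lie near background.

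In the serotonin branch and other uses of tryptophan, 1 of 7 genes passed in Brahman animals, where 19.8% of all probe sets were called. None passed in Holstein-Friesian animals, where 5.02% were called and 1 of the 7 had an unadjusted p under 0.05. WARS1, which loads tryptophan onto its tRNA, rose by 0.80 log2 in Brahman animals (adjusted p = 0.0136). Its other 3 probe sets ranged from -0.27 to 0.38, none past the threshold, and the mean of the 4 did not pass (0.21, adjusted p = 0.574). In Holstein-Friesian animals the smallest p belonged to the amine oxidase gene MAOB at -0.86 and to WARS2, the mitochondrial counterpart of WARS1, at 0.50 (adjusted p = 0.0976 and 0.284), and MAOB passed without infested Holstein-Friesian 1 (adjusted p = 0.0302). The other MAOB probe set passed, at -0.61 (adjusted p = 0.0421). Of 6 genes of the lysine route that AADAT serves, none passed in either breed, and 1 in each had an unadjusted p under 0.05. A second probe set of CRYM, which encodes a ketimine reductase of this route, passed in Brahman animals at -0.75 (adjusted p = 0.017). DHTKD1 and ALDH7A1 came nearest in Brahman animals at -0.73 and 0.63, and GCDH and DHTKD1 in Holstein-Friesian animals at -0.54 and -0.38. DHTKD1 passed in Brahman animals without infested Brahman 1 (adjusted p = 0.00835), and GCDH in Holstein-Friesian animals without infested Holstein-Friesian 1 (adjusted p = 0.0407). Both also passed with the integrity index as a covariate (adjusted p = 0.0117 for DHTKD1 and 0.0464 for GCDH). Their other probe sets went the opposite way without passing. That of DHTKD1 differed by 1.03 in Brahman and 1.13 in Holstein-Friesian animals, and that of GCDH by 0.62 and 0.30. Further probe sets of ALDH7A1 differed by 0.0035 and 0.72 in Brahman animals, also without passing. Of 5 carriers of aromatic amino acids, SLC43A2 rose by 0.85 in Brahman animals (adjusted p = 0.00868, and 0.075 with the integrity index as a covariate), and none passed in Holstein-Friesian animals, where SLC43A2 at 0.45 and SLC6A14 at 0.59 came nearest.

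Kynurenine is a ligand of the aryl hydrocarbon receptor AHR, and TDO2 and TAT respond to glucocorticoids in rat liver, so genes of both responses were followed. Of 9 AHR response genes, 1 fell in Brahman and 2 in Holstein-Friesian animals. Over all probe sets 10.2% were called lower in Brahman and 2.34% in Holstein-Friesian animals. Nothing about AHR activity is read from counts this small. NQO1, a quinone reductase, fell 7.24-fold in Brahman (adjusted p = 0.00117) and 5.08-fold in Holstein-Friesian animals (adjusted p = 0.0102, and 0.0551 without naive Holstein-Friesian 1). CYP1A1, the classical AHR target, fell by 2.24 in Holstein-Friesian animals (adjusted p = 0.0424), and its other 2 probe sets, at -0.23 and -0.45, did not pass. That call was lost without 9 of the 12 arrays in turn. AHR itself differed by -0.73 in Brahman and -0.65 in Holstein-Friesian animals and did not pass (adjusted p = 0.156 and 0.298).

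Of 7 glucocorticoid response genes, 1 rose and 1 fell in each breed. Over all probe sets 9.54% were called higher and 10.2% lower in Brahman animals, and 2.68% and 2.34% in Holstein-Friesian animals. Nothing about the glucocorticoid response is read from counts this small. NR3C1, the glucocorticoid receptor, rose 3.03-fold in Brahman (1.60 ± 0.21 SE, adjusted p = 0.00116) and 2.43-fold in Holstein-Friesian animals (1.28 ± 0.21, adjusted p = 0.0109). It kept its call in both breeds whichever array was left out, and its other probe set differed by -0.06 and 0.12. FKBP5, a chaperone that the receptor induces, fell by 0.89 in Brahman and by 1.12 in Holstein-Friesian animals (adjusted p = 0.0323 and 0.0341). The FKBP5 call was lost in Brahman animals without naive Brahman 2, naive Brahman 3 or infested Brahman 3, and in Holstein-Friesian animals without any 1 of 7 of the arrays. With the integrity index as a covariate it was lost in Brahman animals (adjusted p = 0.165).

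Breakdown of other amino acids was followed to set the aromatic routes beside their counterparts. In Brahman animals 14 of 27 measured genes fell and 1 rose, with a median of -0.91 log2, where 10.2% of all probe sets were called lower and 9.54% higher. The 14 were the branched-chain genes BCAT2, BCKDHA, BCKDHB, DBT, IVD, MCCC1, HIBADH, HIBCH, ALDH6A1, PCCA, PCCB and MMUT, and the threonine genes TDH and GCAT. The gene that rose was GLUD1, glutamate dehydrogenase, by 0.53 (adjusted p = 0.037), and its other probe set, at -0.72, did not pass (adjusted p = 0.0583). BCKDHA, a subunit of the dehydrogenase that commits branched-chain keto acids to breakdown, averaged 9.45 ± 0.39 in infested and 10.86 ± 0.13 in naive Brahman animals (SD, n = 3 each, adjusted p = 0.00109). TDH, of threonine breakdown, fell by 2.44 (adjusted p = 0.0115, and 0.0519 without naive Brahman 3), and DBT, another subunit of that dehydrogenase, by 1.71 (adjusted p = 0.00702). PCCB, a propionyl-CoA carboxylase subunit, fell by 1.45 (adjusted p = 0.00272), and the mitochondrial transaminase BCAT2 by 1.33 (adjusted p = 0.0115). GCAT, the partner of TDH, fell by 1.30 (adjusted p = 0.0288), and its call was lost without infested Brahman 1 or any 1 of the naive Brahman arrays. With the integrity index as a covariate the calls of DBT, BCAT2 and GCAT were lost (adjusted p = 0.0693, 0.138 and 0.288). With the replicate block in the 6 Brahman arrays, those of BCKDHA, TDH, DBT, PCCB, BCAT2 and GCAT were lost (adjusted p between 0.0508 and 0.0805).

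In Holstein-Friesian animals 4 of these 27 genes fell and none rose, with a median of -0.63, where 2.34% of all probe sets were called lower. They were IVD, of leucine breakdown, at -1.22, HIBADH, of valine breakdown, at -0.74, BCKDHA at -0.71 and CBS, of sulphur amino acid metabolism, at -0.65 (adjusted p between 0.0402 and 0.0476). Each of the 4 calls was lost without 8 to 10 of the 12 arrays in turn. When the block was fitted within Holstein-Friesian animals, HIBADH, BCKDHA and CBS did not pass (adjusted p between 0.0505 and 0.054).

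**Figure D3:**
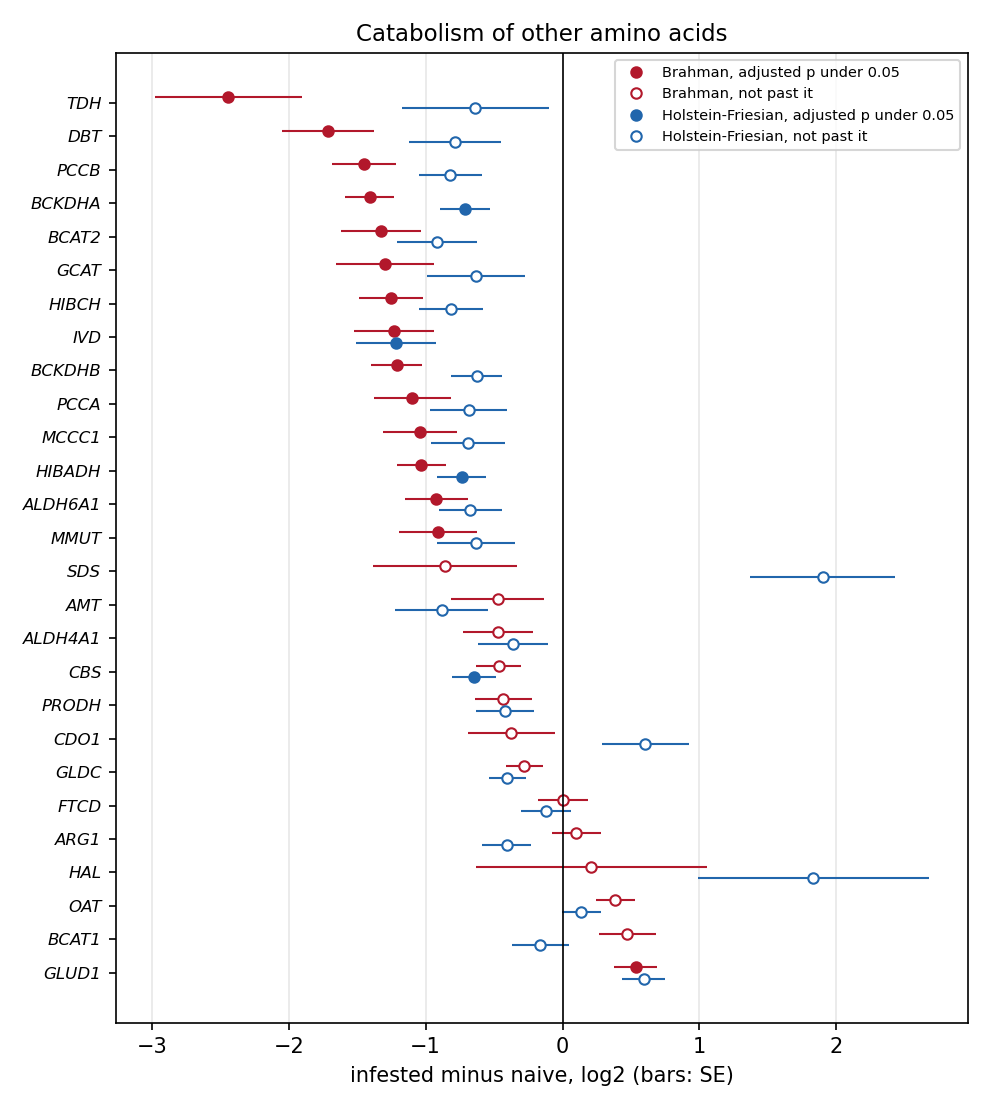
Log2 difference, infested minus naive, of 27 genes for the breakdown of other amino acids in Brahman (red) and Holstein-Friesian animals (blue), with SE bars and filled points for adjusted p under 0.05. In Brahman animals 14 filled points lie below 0 and 1 above it, and in Holstein-Friesian animals 4 lie below 0.

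Between infested Brahman and infested Holstein-Friesian animals none of the 74 genes passed by limma, and 11 had an unadjusted p under 0.05. Over all probe sets 0.167% were called. Without infested Holstein-Friesian 1 the count was 4, where 1235 of all 24016 probe sets were called, against 40 in the main fit. Without infested Brahman 1 it was 1, where 156 were called, and without both it was 8, where 2200 were called. None passed by limma for the breeds' difference in the infestation contrast, where 0.00416% of all probe sets were called. There 5 had an unadjusted p under 0.05. Between naive Brahman and naive Holstein-Friesian animals none passed by limma either, 5 had an unadjusted p under 0.05, and 0.0250% of all probe sets were called. The share of all probe sets with an unadjusted p under 0.05 was not computed, so nothing is read from the counts at that threshold.

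The genes whose values over the 12 arrays lay nearest to each enzyme were found by the root mean square difference of log2 values, each gene centred on its 6 naive arrays, among 9154 other genes. They are a description chosen by their values. Nearest to TDO2 was PGLYRP1, a peptidoglycan recognition protein of innate immunity, at 1.22 log2. PGLYRP1 averaged 6.45 in infested and 11.94 in naive Brahman animals, and 7.88 in infested and 13.65 in naive Holstein-Friesian animals. LOC534967 followed at 2.25, HPD at 2.40, DNAJC12 at 2.51 and LY75 at 2.55. DNAJC12 is a co-chaperone of the DNAJ family. It averaged 8.15 in infested and 11.11 in naive Brahman animals, and 9.06 in infested and 11.31 in naive Holstein-Friesian animals.

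Nearest to HPD were LY75, an endocytic receptor known from dendritic cells, at 0.99 log2 and KMO at 1.01, followed by LOC534967, the keratin gene KRT19 and the chromatin gene HMGA1 at 1.15 to 1.16. Nearest to AADAT were LOC783399 at 0.37 and TAT at 0.43, followed by the choline phosphotransferase CHPT1, the secretory epithelium transcription factor SPDEF and the fatty acid desaturase SCD at 0.43 to 0.45. KMO was thus second nearest to HPD, and TAT to AADAT. HPD and AADAT lay 1.57 apart, and AADAT ranked 39 of 9154 in nearness to HPD. The reverse ranks were low, since HPD ranked 5241 and TDO2 9115 in nearness to AADAT, and a flat line lay nearer to AADAT (1.52) than HPD did. TDO2 ranked 1145 in nearness to HPD.

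Skin identity and gland content were read from marker lists. The keratin genes KRT5, KRT14 and KRT10, which define epidermis, averaged between 13.83 and 14.46 log2 in the 4 groups. None of 6 keratinocyte markers passed in either breed (0 by limma, and 0 with an unadjusted p under 0.05), and 5 of the 6 lay below 0 in each. The largest difference was that of DSC3, at -1.07 in Brahman animals without overlap (adjusted p = 0.173) and -0.49 in Holstein-Friesian animals with overlap. Of 11 liver markers, TTR rose in Holstein-Friesian animals, SERPINA1 and TF rose and AHSG fell in Brahman animals. Their levels differed widely: the group means of APOA2, APOB, APOH, FGB and FGG lay between 3.45 and 4.91, and those of APOA1, TTR and TF between 5.60 and 7.87. Group means of AHSG lay between 8.19 and 8.86, and those of ALB and SERPINA1 between 9.84 and 11.25.

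Some markers of sweat and sebaceous glands also fell. Of 8 sweat gland markers, 4 (KRT7, KRT18, KRT19 and AZGP1) fell in each breed, where 10.2% of all probe sets were called lower in Brahman and 2.34% in Holstein-Friesian animals. AQP5 rose by 2.79 in Brahman animals and differed by 1.94 in Holstein-Friesian animals without passing. KRT8, MUC1 and SLC12A2 passed in neither breed, at 0.14, 0.19 and -0.46 in Brahman and 0.15, -0.08 and -0.24 in Holstein-Friesian animals. The mean level of that list, relative to the 6 naive arrays, lay between -1.11 and -0.65 on infested Brahman arrays, against -0.25 to 0.35 on naive Brahman arrays. It lay between -0.99 and -0.60 on infested Holstein-Friesian arrays, against -0.39 to 0.10 on naive ones. Of 4 sebaceous markers, CIDEA, MGST1 and THRSP fell in Brahman animals, and MGST1 and THRSP in Holstein-Friesian animals. Their level lay between -2.32 and -1.75 on infested Brahman arrays, against -0.15 to 0.42 on naive ones, and between -1.91 and -1.48 on infested Holstein-Friesian arrays, against -0.24 to 0.00 on naive ones. Of 8 fibroblast markers 6 rose in Brahman and 3 in Holstein-Friesian animals, and of 5 macrophage markers 3 rose in each breed, and none of either list fell. Among all probe sets, 9.54% were called higher in Brahman animals, and 2.68% were in Holstein-Friesian animals. Among 5 adipocyte markers 3 rose in Brahman animals, and none passed in Holstein-Friesian animals. Of 7 muscle markers CKM rose in Brahman animals by 1.25, while 5 were below 0 without passing, with a list median of -0.60 and ACTA1 at -3.91 (adjusted p = 0.0525). None of the 7 passed in Holstein-Friesian animals.

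Among naive animals the array with the lowest sweat gland level was array 2 in both breeds, at -0.25 in Brahman and -0.39 in Holstein-Friesian animals. Array 2 also had the lowest TDO2 and HPD of its naive group in both breeds, and the lowest AADAT in naive Brahman animals. In naive Holstein-Friesian animals AADAT was 9.20 on array 2 and 9.17 on array 3. Array 2 was highest of its naive group in both breeds for adipocyte markers, at 0.51 in Brahman and 0.44 in Holstein-Friesian animals. The same held for macrophage markers, at 0.26 and 0.47, and for the integrity index, at -0.85 and -0.82, in the same order. Other orders ran differently. Infested Brahman 1 had the lowest sweat gland level of its group (-1.11) but its highest TDO2 and AADAT. Naive Brahman 1 had the lowest sebaceous level of its group (-0.15) but its highest TDO2, HPD and AADAT. The part of gland, adipocyte or macrophage content in the levels of the 3 enzymes was not tested.

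**Figure D4:**
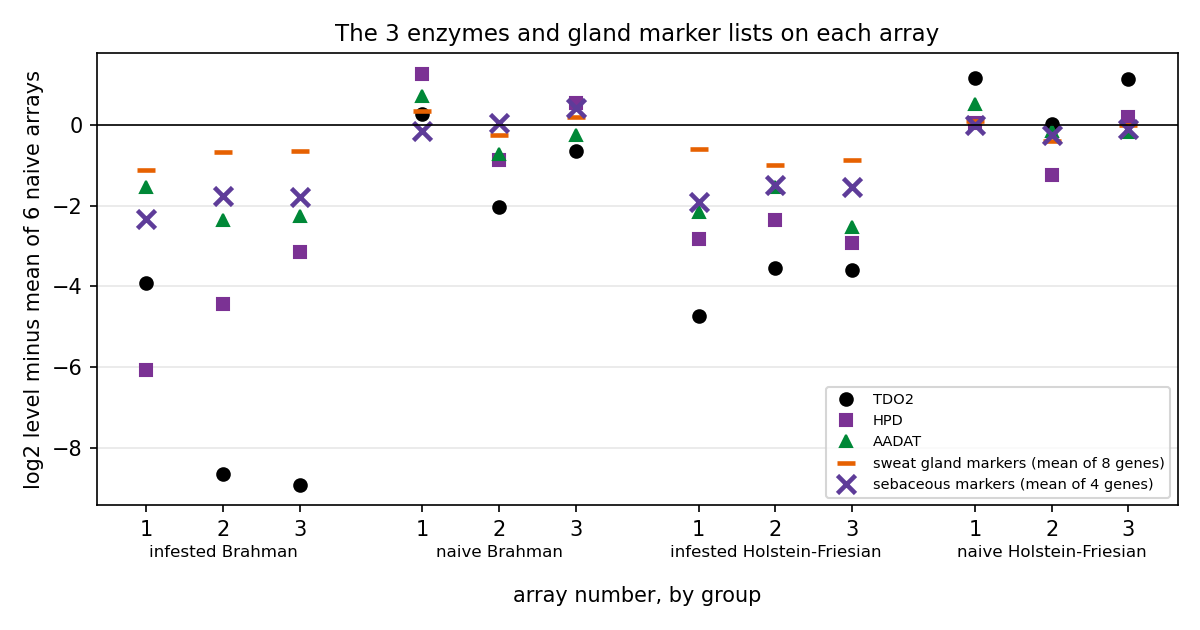
Log2 level of TDO2, HPD and AADAT and mean level of the sweat gland and sebaceous marker lists on each array, each minus its mean over the 6 naive arrays, with array numbers by group along the horizontal axis. Both marker lists and the 3 enzymes lie below 0 on all infested arrays, and naive array 2 has the lowest TDO2, HPD and sweat gland level of its group in both breeds.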

How the data were processed

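The authors deposited log2 expression values for each probe set on each array, computed with RMA per the submitters' processing notes. The software and its version: not given in the sources used here. No detection calls were used, so signal over background is unknown. Of 24128 probe sets, 112 controls were left out and 24016 were tested without a filter. Symbols came from the platform annotation, where 13292 tested probe sets had 1 symbol, 86 several and 10638 none. A gene was represented by its probe set of highest mean.

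limma 3.58.1 (R 4.3.3) fitted a mean for each of the 4 groups to all 12 arrays together. Each probe set had 8 residual degrees of freedom, and the prior added 3.03. Tests were two-sided and p-values adjusted by Benjamini-Hochberg over all tested probe sets for each of 5 comparisons separately, and an adjusted p under 0.05 was called. Each array came from another animal, so the replicate spread is that between animals, and 3 arrays per group limit the precision. Array medians lay between 6.58 and 6.73, and identical values made up at most 0.104% of any pair of arrays. The procedure was tested on simulated data.

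The 3 genes, the gene lists and the settings were chosen with earlier results of these data known. Named genes were, per list and breed, the called genes up to 6 by size or, where none passed, the 2 of smallest p, plus IDO1, KMO, KYNU, TAT, HGD and FAH, and the 5 genes nearest to each enzyme. Genes named with the other amino acids beyond these were added after their values were seen, as were the markers. All groups carry replicate numbers 1 to 3. Arrays of the same number deviated together from their group means with a correlation of 0.113 to 0.249 between infested and naive Holstein-Friesian animals, which the rule applied here takes as paired, and of -0.189 to -0.053 between infested and naive Brahman animals. Between naive Brahman and naive Holstein-Friesian animals this correlation lay between 0.0222 and 0.3285. No label explains a pairing.

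The alternatives were median centring, cyclic loess, the replicate block, a fit restricted to the 6 arrays compared, weighting arrays, leaving out each array, adding the integrity index or dropping the 2 arrays where it was lowest, removing probe sets in the lowest 40% by signal, a trended robust prior, and averaging the probe sets of each gene.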

Additional observations from a re-analysis of the deposited data

How the results depend on the processing

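Median centring, cyclic loess, the replicate block, the 6 arrays of a comparison and array weights moved none of the differences of TDO2, HPD and AADAT by more than the residual SD of the gene, and the mean of probe sets left them as they were, since each has 1. The integrity index as a covariate gave TDO2 -8.85 in Brahman animals, -4.98 between infested breeds and -3.61 for the breeds' difference, and HPD -3.57 and -1.46 for the first and last of these. Without the 2 arrays of lowest index these 3 TDO2 values were -7.99, -5.21 and -3.62.

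Leaving out 1 array at a time gave, in Brahman animals, TDO2 -7.99 to -5.49, HPD -5.58 to -4.11 and AADAT -2.28 to -1.56, and in Holstein-Friesian animals TDO2 -5.13 to -4.37, HPD -2.82 to -2.10 and AADAT -2.41 to -1.92. Between infested breeds it gave TDO2 -4.82 to -2.33, HPD -2.56 to -1.09 and AADAT -0.23 to 0.29, and between naive breeds -2.12 to -0.97, 0.18 to 1.25 and -0.56 to 0.16 for the same genes. The breeds' difference was -3.24 to -0.74, -3.22 to -1.75 and -0.13 to 0.59 for the same genes.

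Of the 74 pathway genes, the 9 called in Holstein-Friesian animals were 5 with the replicate block in all 12 arrays, 29 with array weights, 14 with the index and 26 without the 2 arrays of lowest index. Over all 24016 probe sets, the 1206 calls were 1047, 4589, 2022 and 4076 under the same settings. The 23 pathway genes in Brahman animals were 5 with the replicate block in 6 arrays, where the numbers do not pair the arrays, and 14 with the index. Over all probe sets, the 4753 calls were 935 and 1808. The 0 pathway genes between infested breeds were 6 with array weights, 1 with the index and 8 without the 2 arrays. Over all probe sets, the 40 calls were 1082, 33 and 2200. The 0 pathway genes for the breeds' difference were 2 with array weights and 5 without the 2 arrays. Over all probe sets, the 1 call became 648 and 1131. Leaving out 1 array gave 1 to 17 pathway genes in Holstein-Friesian and 15 to 25 in Brahman animals. It gave 0 to 4 between infested breeds and 0 to 0 for the breeds' difference. Over all probe sets the ranges were 157 to 2563, 2216 to 5567, 11 to 1235 and 0 to 390, in that order. In Holstein-Friesian animals the replicate block in all 12 arrays ended the calls of CYP1A1, FKBP5, IVD, BCKDHA and CBS (adjusted p between 0.0529 and 0.0761). The calls of HIBADH, BCKDHA, CBS and CYP1A1 there were also each lost under 1 or more other settings that kept all arrays of the breed (adjusted p between 0.0505 and 0.0788). In Brahman animals the block in 6 arrays ended the calls of WARS1, QDPR, SLC43A2 and FKBP5 (adjusted p between 0.0607 and 0.2125). It also ended those of TDH, DBT, PCCB, BCKDHA, BCAT2 and GCAT (0.0508 to 0.0805). The index ended those of QDPR, SLC43A2, FKBP5, DBT, BCAT2 and GCAT (0.0693 to 0.288). The mean of probe sets ended those of WARS1 and QDPR (0.574 and 0.0844), and the 6 arrays alone those of FKBP5 and GCAT (0.104 and 0.0647). With array weights KYAT3, MAOB, GCDH and SLC6A14 passed in Holstein-Friesian animals, DHTKD1 and ALDH7A1 in Brahman animals, and FAH in both (adjusted p between 0.0064 and 0.0449). The cause of these changes was not tested. All 12 arrays have unknown signal over background, so low levels of KYNU, HGD and TDO2 may lie near it.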
